A study of Mus musculus with 6 samples.

Results

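The subunits, activators, inhibitor and assembly chaperones of the proteasome were followed as a group of genes, chosen by name. They are the protein-coding rows of the deposited gene table whose symbol starts with Psma, Psmb, Psmc, Psmd, Psme, Psmf or Psmg and a digit, leaving out Psmc3ip, which encodes a recombination protein. The rule gave 49 genes of 54532 in the table, 22046 of which were protein-coding. The libraries came from mouse testis, from cells that the labels describe as STRA8+ germ cells, a name for cells entering meiosis. Markers of spermatids, spermatocytes and somatic cells were also read, as given below, so the RNA is not that of such cells alone. The 3 knockout libraries (cKO 1 to 3) came from conditional knockout animals, and the 3 control libraries (Control 1 to 3) carried Cre. The labels give neither the deleted gene, the promoter of the Cre, the age of the animals nor whether libraries came from separate animals, so a p-value covers no more than the variation among libraries, which may be technical. The study's title names BCAS2 and hnRNPH1, 2 splicing factors, and asks about splicing in meiotic prophase I.

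The proteasome degrades proteins tagged with ubiquitin. Its 20S core is a barrel of outer alpha rings and inner beta rings, and a few of the beta subunits carry the cutting sites. The 19S cap binds ubiquitin chains, removes them and unfolds the substrate with a ring of ATPases, while the PA28 and PA200 activators open the core without ubiquitin. Male germ cells build a special form, the spermatoproteasome, in which the testis subunit PSMA8 takes the place of PSMA7 in the alpha ring and PA200, the product of Psme4, often caps the core. Mouse males that lack PSMA8 are infertile, with germ cells lost in meiosis.

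Totals per library were 14770320 to 15204127 reads in the knockout and 14532453 to 16963019 reads in the controls, and a tested proteasome gene had 23 to 16210 reads per library. Marker genes of several cell types differed between the groups. The summed level of 8 spermatid markers was 4.06 to 6.96 FPKM (fragments scaled by gene length and library size) in the knockout and 15356 to 17887 FPKM in the controls, and that of 8 pachytene and diplotene markers was 18.5 to 28.3 FPKM in the knockout and 4336 to 5259 FPKM in the controls. The sum of 8 spermatogonial markers was 568.8 to 685.3 FPKM in the knockout and 72.5 to 120.5 FPKM in the controls. Markers of somatic cells differed too. The sum of 8 Sertoli cell markers, all called higher, was 480.6 to 867.7 FPKM in the knockout and 114.9 to 275.1 FPKM in the controls. That of 5 Leydig cell markers was 14.2 to 66.2 FPKM in the knockout and 84.8 to 140.5 FPKM in the controls. As deposited, 3 of the 5 were lower and 1 higher. With each library's FPKM made to sum to 1000000, 1 was lower and 1 higher, so the Leydig calls depend on the scaling. Stra8 itself had 125.4, 136.8 and 136.2 FPKM in the knockout and 11.5, 22.6 and 17.02 FPKM in the controls. No marker of the lists was at 0 in a whole group. In such bulk libraries fewer cells of a type and less RNA per cell cannot be told apart, and the part of the cell mix in the results below was not tested.

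Of the 49 genes, 46 reached a mean of 1 FPKM over the 6 libraries and were tested with limma on log2(FPKM + 0.5), knockout minus control, with Benjamini-Hochberg adjustment over all 16791 genes tested. At an adjusted p of 0.05, 23 were higher, 19 were lower and 4 were not called. The background was broad, since 86.6% of all genes tested were called in either direction, 36.2% higher and 50.4% lower. Being called is therefore near the background for these genes, and the direction depends on the scaling. The deposited values rest on a size factor that sets knockout values low against control values. When each library's FPKM were made to sum to 1000000, 39 of the 46 were higher and 7 lower, where 54.2% of all genes were higher and 36.2% lower. With reads rescaled to 1000000, 36 were higher and 7 lower (all genes 50.6% and 38.9%), and under quantile normalization 38 were higher and 7 lower (all genes 52.1% and 36.8%). The median log2 fold change of the 46 genes was 0.21 as deposited and 1.39 when so rescaled, and that of all genes tested was -0.41 and 0.71. As deposited, the groups of 3 libraries did not overlap for 43 of the 46 genes, near the background of 88% of all genes tested.

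Calls that held under the deposited scaling and these 3 others divided the genes as follows. Lower under all 4 scalings were 7 genes (15.2%), namely Psma8, Psma6, the ATPase genes Psmc2 and Psmc3, the lid gene Psmd8, Psme4 and the inhibitor gene Psmf1. Higher under all 4 were 23 genes, 50% of those tested, where all genes tested gave 36.2% higher and 34.2% lower under all 4. The other 3 scalings raise knockout values against control values, so a gene higher as deposited could hardly fail this check. Of all genes tested, 6075 were higher as deposited and 6074 under all 4. Holding under all 4 scalings therefore adds little for a rise and is a check on falls only. A further 12 genes were lower as deposited and higher in sum-scaled values, so their direction is not set by these data. The remaining 4, Psma3, Psmd3, Psmd11 and Psmd10, were not called as deposited and were higher under the other 3 scalings.

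**Figure D1:**
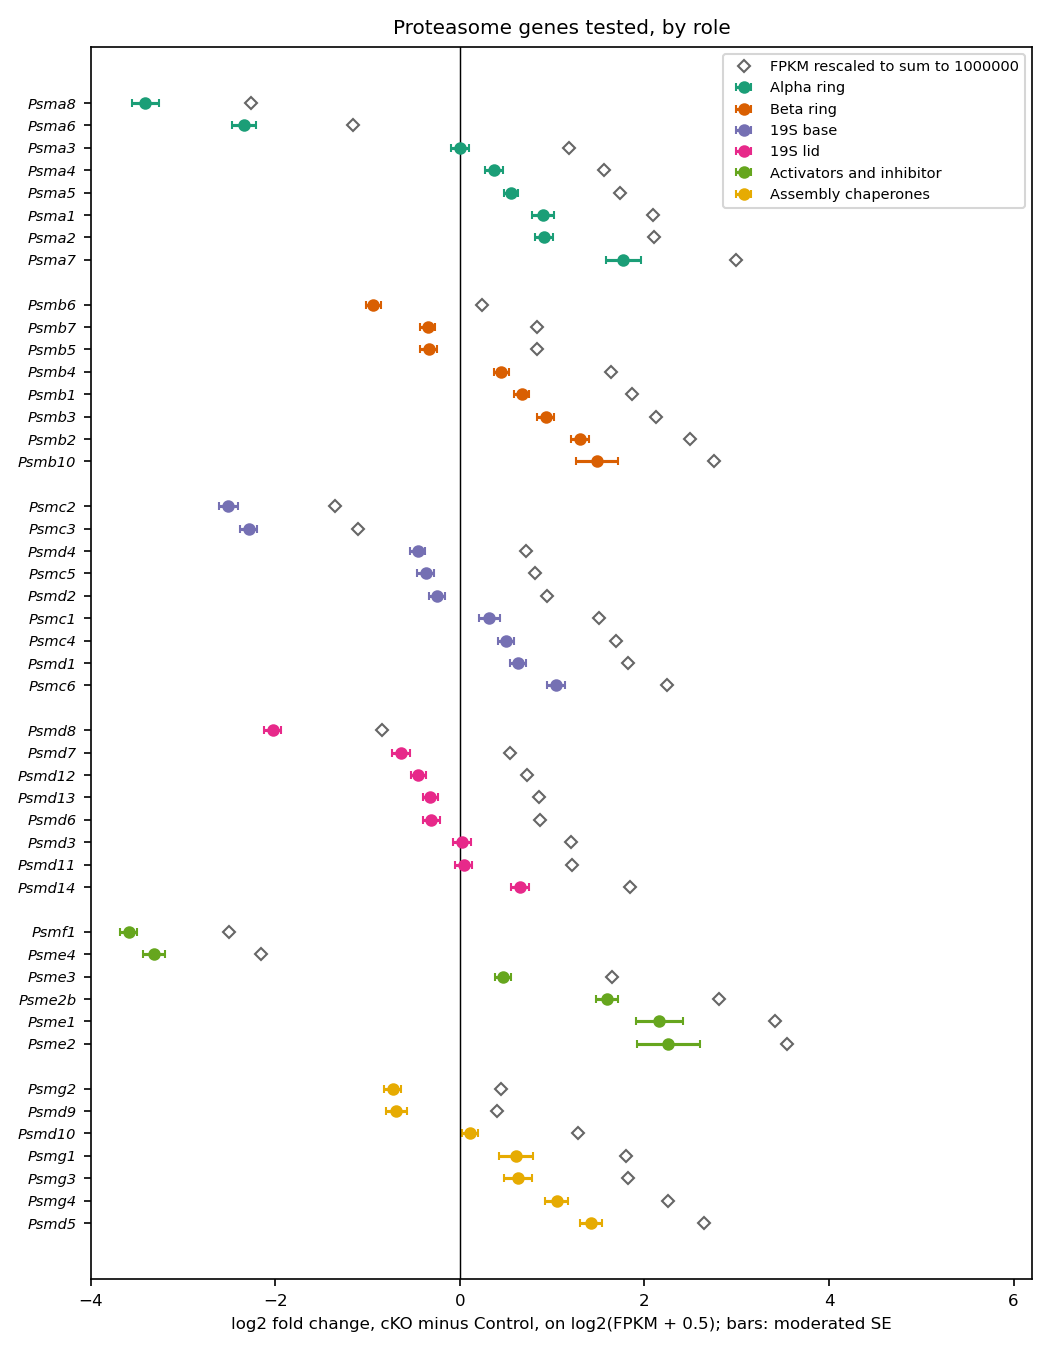
Log2 fold change, cKO minus Control, of the 46 proteasome genes tested, grouped by role, with moderated standard errors as bars. Filled points are on the deposited scale and open diamonds on FPKM rescaled to sum to 1000000, and the 7 genes from Psmf1 (-3.59) to Psmd8 (-2.03) are the ones below 0 on both.

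Promoter sequences of 4 genes are shown, all of them called in the same direction under all 4 scalings. Psma7 is shown as the higher counterpart of Psma8, and Psme4, Psma6 and Psmc2 as the lower genes whose windows hold the ETS motif below. Psmf1 and Psmd8, also lower under all 4, hold neither motif marked here. The sequences are from RefSeq in build GRCm38.p6 and run from 250 bases before to 50 bases after an annotated start. Capitals mark the core of the ETS factor motif (CCGGAAG) and of the antioxidant response element (TGACNNNGC), either strand; the latter is the element through which NFE2L1 raises proteasome genes. Psma6 and Psmc2 each have 2 annotated starts, and gene-level values do not show which was used.
Psma7, chr2:180042415-180042714, minus strand: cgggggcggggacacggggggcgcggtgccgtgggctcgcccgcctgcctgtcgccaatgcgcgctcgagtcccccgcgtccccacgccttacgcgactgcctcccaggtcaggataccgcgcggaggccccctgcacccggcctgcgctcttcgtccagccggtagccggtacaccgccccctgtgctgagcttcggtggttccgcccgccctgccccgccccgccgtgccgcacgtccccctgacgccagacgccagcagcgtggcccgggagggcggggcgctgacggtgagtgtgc
Psme4, chr11:30771525-30771824, plus strand: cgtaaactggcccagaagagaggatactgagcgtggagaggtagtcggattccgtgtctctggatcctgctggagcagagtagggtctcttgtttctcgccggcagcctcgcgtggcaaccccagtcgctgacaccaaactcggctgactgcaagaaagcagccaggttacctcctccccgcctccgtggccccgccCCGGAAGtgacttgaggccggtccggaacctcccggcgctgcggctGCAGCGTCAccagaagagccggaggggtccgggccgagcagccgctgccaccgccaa
Psma6 first start, chr12:55383972-55384271, plus strand: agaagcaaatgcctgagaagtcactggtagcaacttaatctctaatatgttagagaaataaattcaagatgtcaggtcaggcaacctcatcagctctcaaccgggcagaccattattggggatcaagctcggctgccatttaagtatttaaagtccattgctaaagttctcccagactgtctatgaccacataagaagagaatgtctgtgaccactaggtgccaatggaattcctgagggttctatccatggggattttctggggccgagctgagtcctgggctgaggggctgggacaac
Psma6 second start, chr12:55398575-55398874, plus strand: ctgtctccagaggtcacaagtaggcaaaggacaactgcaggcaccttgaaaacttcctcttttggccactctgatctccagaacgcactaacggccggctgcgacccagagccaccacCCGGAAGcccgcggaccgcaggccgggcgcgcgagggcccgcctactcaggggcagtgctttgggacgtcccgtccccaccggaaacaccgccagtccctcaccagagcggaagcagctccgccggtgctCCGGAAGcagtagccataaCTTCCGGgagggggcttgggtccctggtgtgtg
Psmc2 first start, chr5:21785025-21785324, plus strand: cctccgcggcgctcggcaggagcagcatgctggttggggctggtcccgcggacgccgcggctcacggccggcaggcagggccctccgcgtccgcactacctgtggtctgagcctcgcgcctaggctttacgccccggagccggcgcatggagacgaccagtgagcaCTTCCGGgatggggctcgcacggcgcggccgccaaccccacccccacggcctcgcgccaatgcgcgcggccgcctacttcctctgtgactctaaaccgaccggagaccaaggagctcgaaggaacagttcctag
Psmc2 second start, chr5:21786497-21786796, plus strand: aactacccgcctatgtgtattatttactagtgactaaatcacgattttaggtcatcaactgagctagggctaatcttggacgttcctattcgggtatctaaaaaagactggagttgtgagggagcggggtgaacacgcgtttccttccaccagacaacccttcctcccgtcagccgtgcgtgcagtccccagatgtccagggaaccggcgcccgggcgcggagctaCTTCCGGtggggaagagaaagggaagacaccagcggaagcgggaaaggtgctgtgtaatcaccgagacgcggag
The Psma7 window holds neither motif, and the Psme4 window holds 1 of each. The second Psma6 start holds 3 copies of CCGGAAG and the first holds 0. Each Psmc2 start holds 1 copy.

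Across the 41 proteasome genes with a promoter in the table, 44 windows were searched on both strands. CCGGAAG was in 15 of the 44 windows (34.1%) and in 8.86% of all 32851 promoter windows of the same length. Among genes lower as deposited, 8 of 14 had it in a window, and among genes higher as deposited 5 of 21 did. Of the 8, 5 are genes whose direction turned with the scaling, so that among genes with a window that were lower under all 4 scalings 3 of 5 had it. Psma8 and Psmc3, also lower under all 4, had no window to search. TGACNNNGC was in 6 of the 44 windows (13.6%) and in 12.4% of all windows. It was in 5 of the 14 genes lower as deposited and in 1 of the 21 higher genes, Psmc6. Among the 5 genes with a window that were lower under all 4 scalings it was in 1, Psme4. No copies of the 2 motifs overlapped in these windows. The CCAAT box was in 14 windows (31.8%, against 37.4% of all), the MYB core CAGTTG in 7 (15.9%, against 13.7%), and the cAMP response element TGACGTCA in 0 (against 1.79%). These matches describe letters in a window and were not tested.

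The testis alpha subunit and its ubiquitous counterpart changed places. Psma8 (ENSMUSG00000036743) had 9.99, 12.5 and 9.33 FPKM in the knockout and 109.1, 105.1 and 139.1 FPKM in the controls. Psma7 (ENSMUSG00000027566, chromosome 2 at 180036374 to 180042433 in mm10) had 28.0, 26.4 and 27.7 FPKM in the knockout and 5.42, 8.50 and 9.67 FPKM in the controls. Neither gene's groups overlap, and the order of the 2 genes is opposite in the groups. Mean Psma8 was 11.1 times lower in the knockout, with a log2 fold change of -3.41 ± 0.148 (SE) and a limma adjusted p of 1.9e-07. Mean Psma7 was 3.48 times higher, with a log2 fold change of 1.77 ± 0.191 (SE) and a limma adjusted p of 4.4e-05. The 2 genes shared 0 stretches of 50 bases in annotated transcripts, so reads of one are not easily counted for the other.

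Because both values come from 1 library, a factor applied to the whole library leaves their ratio as it is, which quantile normalization does not. Psma8 made up 26.3, 32.2 and 25.2% of Psma7 plus Psma8 in the knockout and 95.3, 92.5 and 93.5% in the controls. All 3 knockout libraries lay far below the controls, with a difference of means of -65.9 percentage points. An exact two-sided permutation test over libraries gave p = 0.1, the smallest that 3 against 3 allows, as for all 7 within-library ratios tested (0.1 adjusted). The summed level of the pair was 38.0 ± 0.934 FPKM in the knockout and 125.6 ± 20.1 FPKM in the controls (SD, n = 3 each). Psma8 still had 327 to 429 reads per knockout library.

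**Figure D2:**
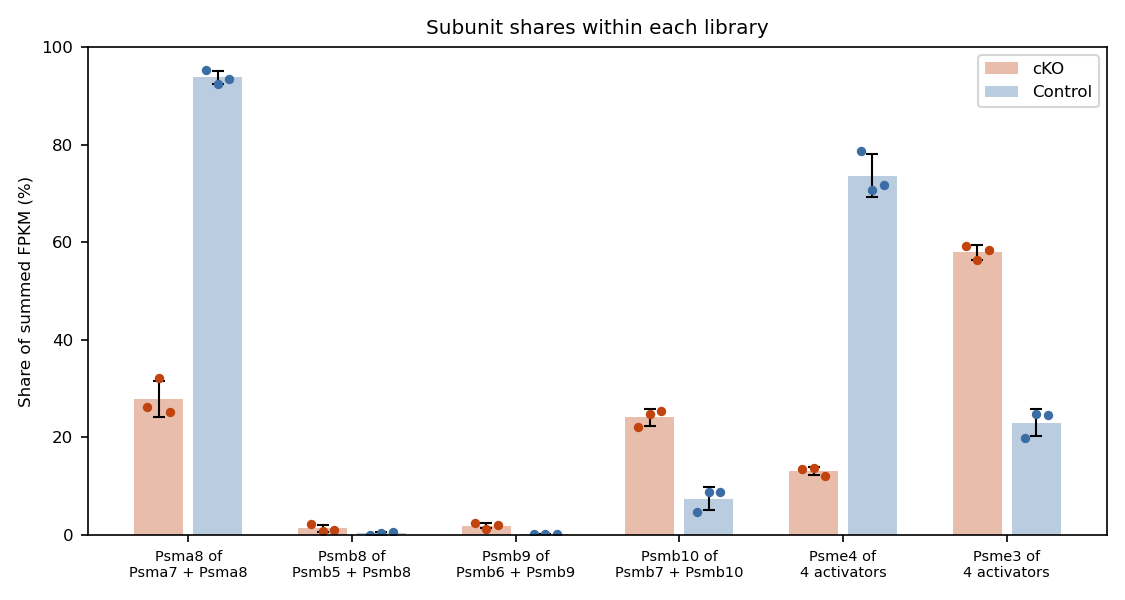
Share of summed FPKM within each library (%), cKO left and Control right, with bars at the mean, error bars of 1 SD and points for the 3 libraries. Psma8 was 25.2 to 32.2% of its pair in cKO and 92.5 to 95.3% in Control, and Psme4 was 12.2 to 13.7% of the 4 activators in cKO and 70.6 to 78.7% in Control.

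Of the 7 constitutive alpha genes, Psma7 among them, 5 rose, 1 fell and 1 was not called, and these directions held under all 4 scalings for the 6 called. All genes tested gave 36.2% higher and 34.2% lower under all 4. Psma1 had 30.8, 38.7 and 34.2 FPKM in the knockout and 16.1, 18.5 and 20.2 FPKM in the controls. Psma2 had 22.4, 21.2 and 24.5 FPKM in the knockout and 11.2, 12.7 and 11.7 FPKM in the controls. Their groups do not overlap, with log2 fold changes of 0.90 and 0.91. Psma4 and Psma5 rose less, by 0.37 and 0.55 on the log2 scale, with limma adjusted p of 0.00724 and 0.0002. Psma3 had 25.6 ± 2.16 FPKM in the knockout and 25.7 ± 1.70 FPKM in the controls, and its groups overlapped.

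Psma6 was the exception. It encodes an alpha subunit that every 20S core needs, and it lies on chromosome 12 at 55384222 to 55418454. Its level was 81.7, 90.7 and 85.2 FPKM in the knockout and 525.9, 382.9 and 411.6 FPKM in the controls, with no overlap. The log2 fold change was -2.34 ± 0.129 (SE), with a limma adjusted p of 8.4e-07. In the controls Psma6 stood 13.4 ± 2.22 times above the median of the 14 constitutive core genes, and in the knockout 2.31 ± 0.0672 times.

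In the beta rings the genes of the cutting subunits and the others went different ways as deposited. Psmb5, Psmb6 and Psmb7 encode the cutting subunits of the constitutive core. Psmb6 had 40.2, 37.6 and 41.6 FPKM in the knockout and 80.5, 74.4 and 76.1 FPKM in the controls. Psmb5 had 52.2 ± 4.83 FPKM in the knockout and 66.1 ± 3.31 FPKM in the controls, and Psmb7 had 24.0 ± 1.11 and 30.7 ± 0.161 FPKM in the same order. As deposited all 3 were lower, with log2 fold changes of -0.94, -0.34 and -0.35 for Psmb6, Psmb5 and Psmb7, but with FPKM rescaled to sum to 1000000 all 3 were higher, at 0.24, 0.84 and 0.83.

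The structural beta genes were higher under all 4 scalings, as were 36.2% of all genes tested. Psmb2 had 83.2, 100.8 and 102.1 FPKM in the knockout and 38.2, 39.4 and 37.5 FPKM in the controls, the largest rise among the 4. Psmb3 had 31.7 ± 1.03 FPKM in the knockout and 16.4 ± 1.18 FPKM in the controls. Psmb1 and Psmb4 rose by 0.67 and 0.45 on the log2 scale. Set against the median of the core genes in its own library, which a factor per library does not move, Psmb6 was at 1.07 ± 0.0753 in the knockout and 2.35 ± 0.110 in the controls, while Psmb2 was at 2.56 ± 0.194 in the knockout and 1.17 ± 0.0800 in the controls (SD, n = 3 each).

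The immune forms of the cutting subunits were low in both groups. Psmb10, the immune counterpart of Psmb7, had 6.48, 8.15 and 8.38 FPKM in the knockout and 1.52, 2.95 and 2.95 FPKM in the controls, a log2 fold change of 1.49 ± 0.228 (SE) with a limma adjusted p of 0.00036. It was the one immune subunit to pass the filter. Psmb8 had 1.064, 0.470 and 0.582 FPKM in the knockout and 0.0728, 0.223 and 0.415 FPKM in the controls, on 26 to 63 and 2 to 14 reads per library. Psmb9 had 1.01, 0.4998 and 0.845 FPKM in the knockout and 0.109, 0.125 and 0.177 FPKM in the controls. For all 3 genes the knockout libraries lay above the controls, Psmb8 by a small margin. Exons of Psmb9 and of its neighbour Tap1, on the opposite strand, share 212 bases, so reads there cannot be told apart without strand.

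Psmb10 was 22.2, 24.7 and 25.5% of Psmb7 plus Psmb10 in the knockout and 4.72, 8.80 and 8.73% in the controls. The shares of Psmb8 and Psmb9 in their pairs stayed under 3% in every library, at 1.37 ± 0.726 and 1.92 ± 0.572% in the knockout and 0.366 ± 0.278 and 0.178 ± 0.0497% in the controls. As deposited, markers of macrophages and other leukocytes moved in part with these genes. The summed level of the 8 markers was 298.1, 87.0 and 109.0 FPKM in the knockout and 54.5, 86.6 and 69.1 FPKM in the controls, with knockout 2 level with Control 2. Of the 7 markers tested, 4 were higher as deposited (36.2% of all genes) and 7 in sum-scaled values (54.2% of all genes), so this too depends on the scaling. Psmb8 and Psmb9 were also highest in knockout 1, whereas Psmb10 was lowest there among the knockout libraries. The part of leukocytes in these values was not tested. Psmb11, the thymus subunit, had 5 to 7 reads per knockout library and 0 to 4 per control library.

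**Figure D3:**
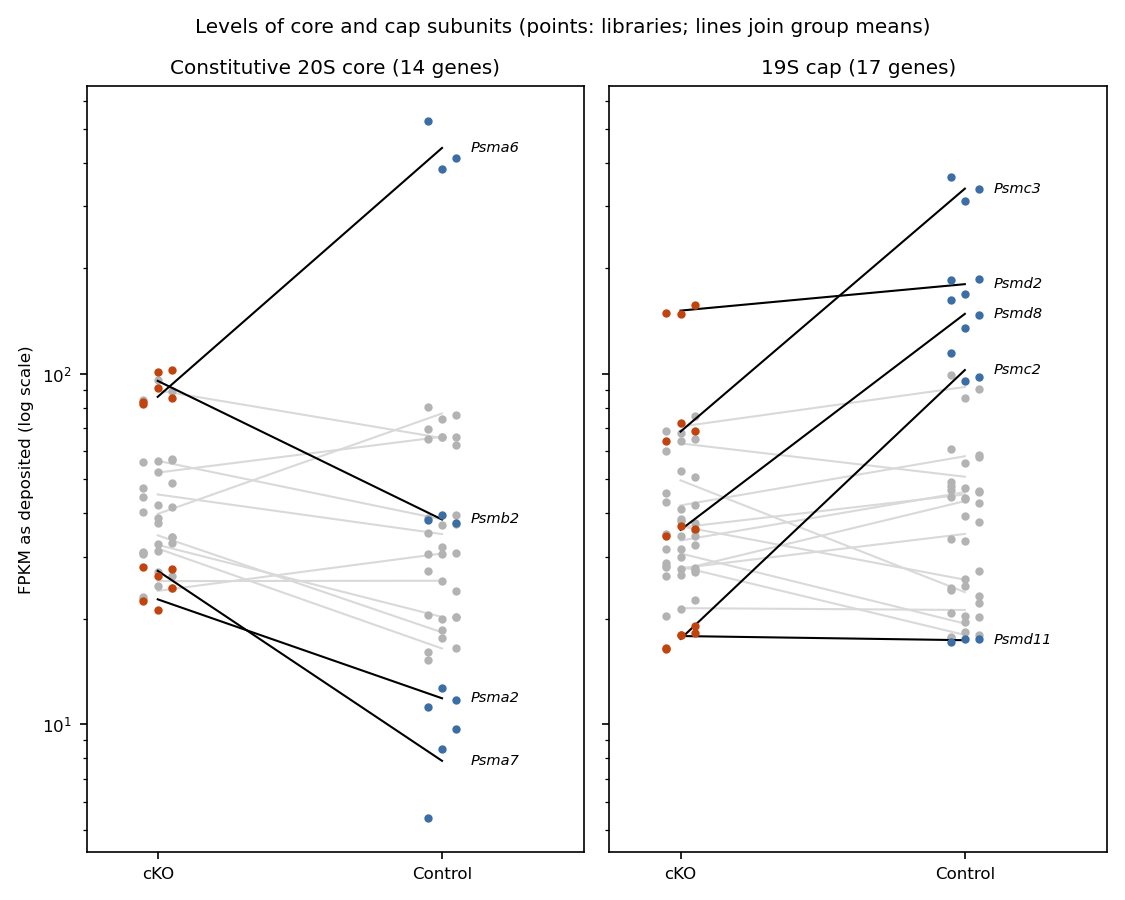
FPKM (log axis) of the 14 constitutive core genes and the 17 cap genes in cKO (left) and Control (right), with a point per library and lines joining group means. The core genes ran from 22.4 to 84.1 FPKM in cKO 1 and from 5.42 to 525.9 FPKM in Control 1, so the lines spread towards Control.

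The 19S base holds 6 ATPases, which form a single ring with 1 copy of each. Psmc2 and Psmc3 fell under all 4 scalings. Psmc2 had 16.4, 17.98 and 18.2 FPKM in the knockout and 114.3, 95.1 and 97.7 FPKM in the controls, 5.84 times lower. Psmc3 had 64.4, 72.1 and 68.5 FPKM in the knockout and 364.4, 310.4 and 335.9 FPKM in the controls, 4.93 times lower. Their log2 fold changes were -2.51 ± 0.101 and -2.29 ± 0.0948 (SE), with limma adjusted p of 1.2e-07 and 1.4e-07. The exons of Psmc3 share 215 bases (8.25%) with Slc39a13 on the opposite strand.

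Psmc1, Psmc4 and Psmc6 rose under all 4 scalings. Psmc6 had 45.6, 52.6 and 50.6 FPKM in the knockout and 24.5, 24.7 and 22.2 FPKM in the controls, with a log2 fold change of 1.04 ± 0.0936 (SE) and a limma adjusted p of 1.5e-05. Psmc4 rose by 0.50 and Psmc1 by 0.32 on the log2 scale. The call of Psmc1 was lost without knockout 2, knockout 3, Control 1 or Control 2 (limma adjusted p of 0.0635 to 0.0774) and was kept without knockout 1 (0.0362) or Control 3 (0.00382). Psmc5 was at 70.6 ± 4.33 FPKM in the knockout and 91.6 ± 6.96 FPKM in the controls, with a log2 fold change of -0.37 as deposited and 0.81 in sum-scaled values. Psmc2 was thus the lowest of the 6 ATPase genes in all 3 knockout libraries, and Psmc3 the highest in all 3 controls.

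The other base genes encode the large scaffolds and a ubiquitin receptor. Psmd1, a scaffold, rose under all 4 scalings, with 26.5, 30.0 and 28.0 FPKM in the knockout and 17.7, 18.3 and 17.9 FPKM in the controls. Psmd2, the other scaffold, was the most abundant cap gene of the knockout libraries, with 149.0, 148.2 and 156.6 FPKM there and 184.5, 169.2 and 186.1 FPKM in the controls. Its log2 fold change of -0.25 had a limma adjusted p of 0.0217, which became 0.07, 0.0734 and 0.058 without knockout 1, knockout 2 or Control 3 and 0.0625 with the replicate number as a block. It was 0.94 in sum-scaled values. Psmd4, the ubiquitin receptor, had 42.1 ± 1.02 FPKM in the knockout and 58.1 ± 2.77 FPKM in the controls, with log2 fold changes of -0.46 and 0.72 on the 2 scales.

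Of 8 genes of the lid, which removes ubiquitin chains, 1 rose, 5 were lower and 2 were not called as deposited, and in sum-scaled values 7 were higher and 1 lower. All genes tested gave 36.2% higher and 50.4% lower as deposited, and 54.2% and 36.2% in sum-scaled values. Psmd8 was lower under all 4 scalings. It had 34.5, 36.8 and 36.2 FPKM in the knockout and 162.0, 135.3 and 146.9 FPKM in the controls, with a log2 fold change of -2.03 ± 0.0929 (SE) and a limma adjusted p of 2.6e-07. Psmd14, the deubiquitinase of the lid, was higher under all 4, with 28.0, 31.7 and 32.4 FPKM in the knockout and 17.6, 20.3 and 20.2 FPKM in the controls. The lid genes Psmd6, Psmd7, Psmd12 and Psmd13 had log2 fold changes of -0.31, -0.64, -0.45 and -0.32 as deposited and 0.87, 0.54, 0.73 and 0.86 in sum-scaled values. Psmd3 and Psmd11 differed little as deposited, at 21.4 ± 1.10 and 17.8 ± 1.30 FPKM in the knockout and 21.2 ± 1.84 and 17.4 ± 0.226 FPKM in the controls.

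Levels of core and cap genes were more alike in the knockout than in the controls. Within 1 library, on values as deposited, the SD of log2 FPKM over the 31 constitutive core and cap genes was 0.748, 0.760 and 0.749 in the knockout and 1.44, 1.28 and 1.31 in the controls. The highest gene was 8.26 to 9.11 times the lowest in the knockout and 42.6 to 97.1 times the lowest in the controls. In each control library the extremes were Psma6 and Psma7. Leaving out Psma6, Psmc2, Psmc3 and Psmd8, a choice made after their values were seen, the SD was 0.720 to 0.730 in the knockout and 0.940 to 1.07 in the controls. These are descriptions over genes that share libraries and carry no test. The summed level of the cap over that of the core was 1.14, 1.10 and 1.10 in the knockout and 1.22, 1.26 and 1.27 in the controls (exact permutation p = 0.1). The core sum here covers 19 genes, with Psma8, the immune subunits and Psmb11 added to the constitutive ones. The fall of Psma8 therefore enters this ratio. On the share of all FPKM in a library, all 49 genes together took 0.822 ± 0.0361% in the knockout and 0.566 ± 0.0109% in the controls (SD, n = 3 each). Their summed level as deposited had the opposite order, at 1700 ± 74.8 FPKM in the knockout and 2673 ± 164 FPKM in the controls. The direction of the total thus depends on the scaling.

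**Figure D4:**
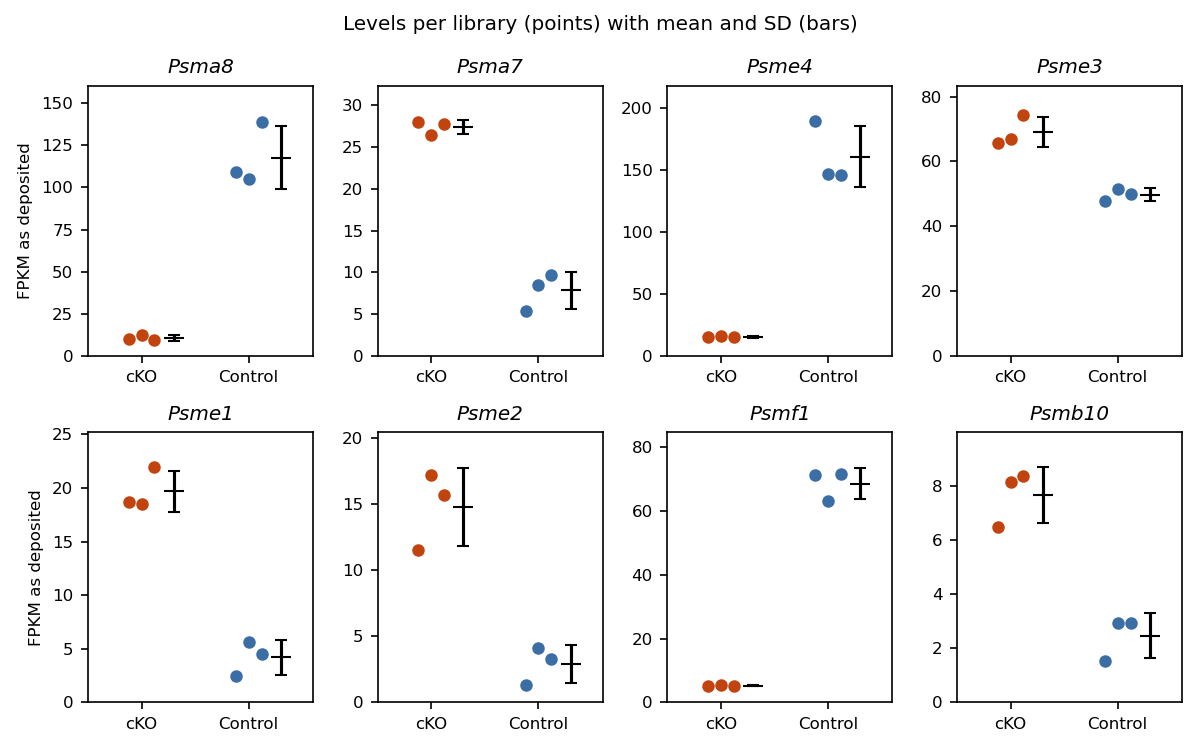
FPKM as deposited of 8 genes in the 3 cKO (left) and 3 Control (right) libraries, with the mean and SD beside the points. The groups do not overlap for any of the 8, as for 88% of all genes tested. Psma8, Psme4 and Psmf1 are lower in cKO, at means of 10.6, 15.6 and 5.21 FPKM, and the other 5 are higher in cKO.

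The activators changed rank. Psme4 (ENSMUSG00000040850, chromosome 11 at 30771726 to 30880361), which encodes PA200, an activator known for the removal of acetylated histones in spermatids, had 14.9, 16.3 and 15.5 FPKM in the knockout and 189.6, 147.2 and 146.3 FPKM in the controls. It was 10.3 times lower in the knockout, with a log2 fold change of -3.32 ± 0.118 (SE) and a limma adjusted p of 6e-08. All 4 genes of the PA28 family rose under all 4 scalings, as did 36.2% of all genes tested. Psme1 had 18.7, 18.5 and 21.9 FPKM in the knockout and 2.44, 5.62 and 4.56 FPKM in the controls, and Psme2, its ring partner, had 11.5, 17.2 and 15.7 FPKM in the knockout and 1.30, 4.10 and 3.27 FPKM in the controls. Control 1 was the lowest library for both, and without it the log2 fold changes of both were 1.86, with 2.16 and 2.26 over all libraries.

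Psme3, the nuclear PA28 gamma, had 65.7, 66.9 and 74.4 FPKM in the knockout and 47.7, 51.5 and 50.1 FPKM in the controls, with a log2 fold change of 0.47 ± 0.0863 (SE) and a limma adjusted p of 0.00113. Psme2b, a close copy of Psme2, had 16.8 ± 1.84 FPKM in the knockout and 5.23 ± 0.438 FPKM in the controls. Of its stretches of 50 bases 68.7% also occur in Psme2 transcripts, so the division of reads between these 2 genes is uncertain. Within the sum of Psme1, Psme2, Psme3 and Psme4, Psme4 took 13.4, 13.7 and 12.2% in the knockout and 78.7, 70.6 and 71.6% in the controls. Psme3 took 58.0 ± 1.54% in the knockout and 23.0 ± 2.79% in the controls. The leading activator transcript was thus Psme3 in all 3 knockout libraries and Psme4 in all 3 controls (exact two-sided permutation p = 0.1 for each share).

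Psmf1, which encodes PI31, a protein that blocks the core in vitro and helps move proteasomes in neurons, was the proteasome gene with the largest fall. It had 5.05, 5.41 and 5.18 FPKM in the knockout and 71.2, 63.0 and 71.7 FPKM in the controls, 13.2 times lower, with a log2 fold change of -3.59 ± 0.0915 (SE) and a limma adjusted p of 9.1e-09. Of 7 assembly chaperone genes, 4 were higher, 2 lower and 1 not called as deposited, where all genes tested gave 36.2% higher and 50.4% lower. In sum-scaled values all 7 were higher, as were 54.2% of all genes. Psmd5, a chaperone of the cap base, had 11.2, 13.7 and 14.1 FPKM in the knockout and 4.78, 4.36 and 4.46 FPKM in the controls. Psmg4, which helps build the alpha ring, had 24.2, 22.4 and 27.1 FPKM in the knockout and 10.1, 11.8 and 13.0 FPKM in the controls. Psmg1 and Psmg3 rose by 0.61 and 0.63 on the log2 scale. All 4 of these chaperone genes were higher under all 4 scalings, as were 36.2% of all genes tested.

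Psmg2, the partner of Psmg1, and Psmd9 went the other way as deposited, with log2 fold changes of -0.73 and -0.69, and had 0.45 and 0.40 in sum-scaled values. Of the exons of Psmd9, 25.5% overlap Gm26745 on the opposite strand. Psmd10, known as gankyrin, had 11.1 ± 0.347 FPKM in the knockout and 10.3 ± 0.171 FPKM in the controls and was not called as deposited (limma adjusted p = 0.272).

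Genes that work with the proteasome were also divided. For this list and those below, the background is that of all genes tested. It was 36.2% higher and 50.4% lower as deposited, and 54.2% and 36.2% in sum-scaled values. Of 10 genes for other proteasome-bound proteins and assembly factors, 5 were higher and 4 lower as deposited, and 8 higher and 1 lower in sum-scaled values. Akirin2, which brings proteasomes into the nucleus, had 33.0 ± 1.70 FPKM in the knockout and 138.9 ± 22.0 FPKM in the controls, lower on both scales at -2.05 and -0.87. Txnl1, a thioredoxin of the cap, had 47.4 ± 2.12 FPKM in the knockout and 19.7 ± 1.12 FPKM in the controls, and rose on both scales. Uchl5, a deubiquitinase of the cap, had log2 fold changes of -1.27 and -0.12, the second not called (limma adjusted p = 0.45).

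Among 12 shuttles and unfoldase genes, 3 were higher and 9 lower as deposited, and 7 higher and 5 lower in sum-scaled values. Ubqlnl, a ubiquilin-like gene, had 1 read in knockout 2 and 0 in knockout 1 and 3, against 153.7 ± 21.1 FPKM in the controls. Ddi1, a retroviral-type protease, had 2 reads in knockout 2, 0 in the other 2 knockout libraries and 39.1 ± 7.49 FPKM in the controls. Of 7 ubiquitin and E1 genes, 4 were higher and 3 lower as deposited, and 4 and 1 in sum-scaled values. Ubb, a polyubiquitin gene, had 275.1, 231.8 and 216.0 FPKM in the knockout and 969.8, 1042 and 1113 FPKM in the controls, lower on both scales at -2.11 and -0.93. Uba6 and Uba1y, which encode ubiquitin-activating enzymes, rose on both scales, with 28.7 ± 4.07 and 45.4 ± 6.60 FPKM in the knockout and 7.68 ± 1.42 and 10.04 ± 1.25 FPKM in the controls.

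Of 8 regulators of proteasome gene transcription, 6 were higher and 2 lower as deposited, and 6 and 1 in sum-scaled values. Ngly1, the enzyme that removes sugars from NFE2L1 before it can act, had 4.39, 5.06 and 4.42 FPKM in the knockout and 77.4, 56.3 and 58.1 FPKM in the controls, with log2 fold changes of -3.64 and -2.56 on the 2 scales. Nfe2l1 itself, named after its value was seen, had 36.8, 33.1 and 35.1 FPKM in the knockout and 10.2, 13.3 and 13.6 FPKM in the controls, with log2 fold changes of 1.47 and 2.68. The rise was not particular to it, since Nfe2l2 of the same list, likewise named after its value was seen, had 1.25 and 2.46. Stat3 and Nfyc rose on both scales, to 9.58 ± 1.30 and 24.0 ± 1.68 FPKM in the knockout, against 3.01 ± 0.360 and 8.17 ± 0.774 FPKM in the controls. Of 12 interferon and antigen presentation genes 8 were tested, of which 7 rose and 1 was not called as deposited. H2-K1, a class I presentation gene, had 118.0 ± 14.3 FPKM in the knockout and 22.8 ± 3.65 FPKM in the controls. Irf1 and H2-D1 had 6.31 ± 0.675 and 44.1 ± 12.5 FPKM in the knockout and 1.45 ± 0.538 and 15.4 ± 2.30 FPKM in the controls. The summed level of the 12 genes was 357.0, 242.1 and 258.1 FPKM in the knockout and 96.1, 124.5 and 122.8 FPKM in the controls. As deposited, the leukocyte marker sums given above moved only in part with this list, being level in knockout 2 and Control 2. In sum-scaled values all 7 leukocyte markers tested and all 8 tested genes of this list were higher. The part of leukocytes was not tested.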

How the data were processed

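RNA of 3 conditional knockout and 3 Cre control libraries was sequenced. The submitters' processing notes name the aligner HISAT2 2.0.5 and the build mm10. Not given in the sources used here are the counter, the annotation release and the handling of strand and of multiply mapped reads. The labels' extraction protocol names retinas, all other labels testis. The authors deposited FPKM values with gene lengths. FPKM times length gave whole reads within 0.01 for 100% of nonzero genes, and the library divisor was that of a median-of-ratios scheme on 19526 genes (1.37 to 1.42 times the recovered total in the knockout, 0.691 to 0.774 times in the controls).

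All genes averaging 1 FPKM or more over the libraries were fitted with limma 3.58.1 (R 4.3.3) on log2(FPKM + 0.5) with a mean-variance trend. Benjamini-Hochberg adjustment ran over all genes tested, with a threshold of 0.05. The fit was tried on simulated data in which few genes changed, as many up as down. In these libraries most genes were called, so the simulation cannot vouch for the calls or the scaling here. Standard errors are moderated. Within-library ratios were tested by exact permutation. Depth limits low genes, and read counts cover counting error only. Every proteasome gene is named; from each pathway list, up to 3 called genes with the largest change and at least 5 FPKM in the higher group are named, apart from a gene that is not reported here. The gene models of 47 of the 49 genes had the same coordinates in GENCODE M21, from which exon overlaps were taken. Members and lists were chosen with earlier results of these data known. Python 3.11.15, numpy 2.4.6, pandas 2.3.3 and matplotlib 3.10.9 made tables and figures.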

Additional observations from a re-analysis of the deposited data

How the results depend on the processing

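The 46 proteasome genes tested kept direction and call under both other pseudocounts, with no filter and with limma voom on recovered reads; the 44 that passed a filter at 5 FPKM did too. That filter tested fewer genes and gave 8547 calls, 3227 higher and 5320 lower. Leaving out 1 library gave 14034 to 14293 calls over all genes and 40 to 41 proteasome genes, losing calls of Psmd2 and Psmc1 alone. With no filter the median log2 fold change of the proteasome genes was 0.32.

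Scaling decided the rest. Proteasome genes called higher and lower were 39 and 7 with FPKM rescaled to sum to 1000000, 36 and 7 with reads rescaled to 1000000, and 38 and 7 under quantile normalization, with medians of 1.39, 1.11 and 1.55. These scalings raised the median of all genes by 1.12, 0.83 and 0.94. Genes that turned from lower to higher had these log2 fold changes under the 3 scalings in that order: Psmd2 0.94, 0.67 and 1.45, Psmc5 0.81, 0.54 and 1.19, Psmb5 0.84, 0.57 and 1.14, Psmd4 0.72, 0.45 and 0.94, Psmg2 0.45, 0.18 and 0.59, Psmd6 0.87, 0.60 and 1.01, Psmd12 0.73, 0.46 and 0.84, Psmd7 0.54, 0.27 and 0.59, Psmd13 0.86, 0.59 and 0.86, and Psmb7 0.83, 0.56 and 0.74. Of these, Psmg2 did not pass with rescaled reads. Psmb6 had 0.24, -0.03 and 0.51, and Psmd9 had 0.40, 0.13 and -0.02, not called at the last 2. Psma3, not called as deposited, had 1.18, 0.90 and 1.08.

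On reads without division by length, the differences knockout minus control were -71.6 percentage points for the Psma8 share, 2.93, 3.33 and 9.85 for Psmb8, Psmb9 and Psmb10, -56.8 and 40.5 for Psme4 and Psme3, and -0.58 for the cap to core ratio; all kept their sign. Deviations of same-numbered libraries from their group means had correlations of -0.122, -0.053 and -0.04. With so few libraries these values cannot decide whether the numbers pair libraries, and the labels do not say. With the replicate block, Psmd2 alone of the 46 genes lost its call, at a log2 fold change of -0.25 and a limma adjusted p of 0.0625.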

Other observations

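Processed pseudogenes of beta subunits are listed in the same table and were at or near 0. Psmb7-ps2, Psmb6-ps and Psmb6-ps2 had 4, 3 and 2 reads over the 3 knockout libraries and 0 in the controls, and Psmb5-ps had 0 in both groups. The highest level among them was 0.177 FPKM.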
